A study of Mus musculus with 16 samples.

Results

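The genes described here encode the proteins of the mitochondrial ribosome. They were taken as all entries whose symbol is Mrpl or Mrps followed by a number, with or without a letter after it. There were 78 such entries among the 18480 of each library, 49 for the large subunit (Mrpl) and 29 for the small subunit (Mrps). None was a pseudogene symbol, and all 78 passed the filter on low values that left 11868 genes for testing.

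The libraries came from tumours of MC38, a mouse colon carcinoma line, that had been grafted under the skin. There were 4 groups of 4 libraries, namely exercise with anti-PDL1, anti-PDL1, exercise, and control. The series title names PD-1 blockade, whereas the sample labels say anti-PDL1, and the labels were followed. The labels give neither the form, amount and timing of exercise and antibody nor the strain and age of the mice. Nor do they state that each library is a separate mouse. The p-values therefore measure only how far these libraries spread, which may be technical. The line's epithelial identity was not visible at the RNA level: Epcam did not exceed 0.17 FPKM, Krt8 0.2 and Krt18 0.18 in any of the 16 libraries, and Cdh1 lay between 1.24 and 3.05 FPKM, while Vim, a mesenchymal filament gene, ranged between 2083.4 and 3768.47 FPKM. FPKM counts fragments relative to transcript length and to the library's total, so that levels of different genes can be compared. FPKM sums lay between 478672 and 529732, and the depth is unknown. Because the tumours were measured in bulk, fewer cells of a type and less RNA per cell cannot be told apart.

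The mitochondrial ribosome translates the few messenger RNAs made from mitochondrial DNA, which in mammals encode core membrane subunits of the respiratory chain and of ATP synthase. Its RNAs come from mitochondrial DNA, while its proteins are encoded in the nucleus, made in the cytosol and imported. The small subunit decodes the messenger, and the large subunit joins the amino acids and is held at the inner membrane. Subunit names follow the gene symbol here, with 3 exceptions to keep in mind. Mrps30 and Mrps18a sit in the large subunit in mammalian structures, and Mrps36 is now known as a component of the 2-oxoglutarate dehydrogenase complex. By structure the large subunit had 51 genes and the small subunit 26.

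The genes lay on 17 chromosomes, and 69 of the 78 matched an entry in the RefSeq promoter table of GRCm38.p6, which gives 250 bases before and 50 after the start of the gene. NRF1 and the ETS factor GABP are known from human and rodent cells as regulators of nuclear genes for mitochondrial proteins, so their motifs were searched on both strands of these windows. A gene with several windows was counted once, if any of them held the motif. The ETS core CGGAAG was found for 39 of the 69 genes (56.5%), against 36.4% of the 9338 tested genes in the table and 18.8% of all its 27025 genes. It was about as frequent among large subunit genes (55.8%) as among small subunit genes (57.7%). The longer ETS form CCGGAAGT, which contains the core, was found for 17.4% of the ribosomal genes and 9.56% of the tested genes. The NRF1 core GCATGCGC was found for 8 of the 69 genes (11.6%), against 6.18% of the tested genes. Of these 8, 7 were large subunit genes and 1 was the small subunit gene Mrps18b. The full NRF1 palindrome, which contains this core, was found for 3 genes, and the cyclic AMP response element TGACGTCA for 2 (2.9%, against 3.63% of the tested genes). These matches describe letters in the windows and were not tested as binding sites.

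Below are the 250 bases before the start of 5 of these genes, read 5′ to 3′ on the strand of the gene. Capitals mark matches to the ETS core or the NRF1 core on either strand, so CTTCCG is the ETS core on the other strand. Mrps6 is shown as the gene that passed the test against control, Mrpl30 and Mrpl51 as the large subunit genes with the smallest p there in either direction, Mrps22 as a gene with a small p in the exercise comparison, and Mrps18b as the small subunit gene with both motifs. The windows are chr16:92058086-92058335 (plus strand) for Mrps6, chr1:37890227-37890476 (plus) for Mrpl30, chr6:125191950-125192199 (plus) for Mrpl51, chr9:98601680-98601929 (minus) for Mrps22 and chr17:35916441-35916690 (minus) for Mrps18b.
Mrps6: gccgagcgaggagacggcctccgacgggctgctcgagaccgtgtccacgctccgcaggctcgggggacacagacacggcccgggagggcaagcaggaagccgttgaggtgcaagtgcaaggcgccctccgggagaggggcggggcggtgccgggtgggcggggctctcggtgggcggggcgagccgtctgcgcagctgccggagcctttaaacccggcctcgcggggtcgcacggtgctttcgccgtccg
Mrpl30: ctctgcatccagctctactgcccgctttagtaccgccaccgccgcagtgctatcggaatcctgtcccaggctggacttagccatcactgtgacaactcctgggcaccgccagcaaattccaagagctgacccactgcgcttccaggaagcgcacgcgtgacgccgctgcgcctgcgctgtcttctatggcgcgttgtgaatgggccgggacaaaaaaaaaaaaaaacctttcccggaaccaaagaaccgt
Mrpl51: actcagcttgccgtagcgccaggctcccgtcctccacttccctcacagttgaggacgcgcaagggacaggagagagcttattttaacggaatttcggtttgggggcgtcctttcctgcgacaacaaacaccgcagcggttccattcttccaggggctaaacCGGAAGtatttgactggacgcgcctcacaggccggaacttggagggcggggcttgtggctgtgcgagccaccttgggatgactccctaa
Mrps22: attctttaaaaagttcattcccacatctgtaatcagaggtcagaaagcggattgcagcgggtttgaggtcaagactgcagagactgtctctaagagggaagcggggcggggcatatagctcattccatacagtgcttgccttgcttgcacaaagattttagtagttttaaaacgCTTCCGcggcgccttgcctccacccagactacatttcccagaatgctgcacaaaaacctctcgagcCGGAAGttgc
Mrps18b: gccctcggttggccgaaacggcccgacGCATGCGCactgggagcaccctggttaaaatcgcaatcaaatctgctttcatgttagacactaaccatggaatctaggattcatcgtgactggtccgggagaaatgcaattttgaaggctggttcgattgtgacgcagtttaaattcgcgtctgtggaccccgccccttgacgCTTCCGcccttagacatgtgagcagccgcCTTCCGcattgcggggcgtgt
Mrps6 and Mrpl30, whose fold changes had opposite signs in anti-PDL1 against control, had neither core in these 250 bases. In Mrpl51 an ETS core began 89 bases before the start. In Mrps22 ETS cores began 10 and 76 bases before it. In Mrps18b the ETS cores began 21 and 50 bases before the start, and the NRF1 core 223 bases before it.

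The mitochondrial ribosomal genes were expressed well above the typical gene, at unequal levels. Their mean over 16 libraries had a median of 32.9 FPKM, against 12.5 FPKM for all tested genes. The median was 35.0 FPKM for large subunit genes and 28.8 FPKM for small subunit genes. The levels spanned a factor of 35.3, although the proteins enter one particle mostly in a single copy. Mrpl30, the homologue of bacterial L30, was highest with a mean of 95.4 FPKM. Next among large subunit genes were Mrpl52, a protein without bacterial counterpart, with 77.2 FPKM, and Mrpl23, which lines the exit of the peptide tunnel, with 77.0 FPKM. The highest small subunit genes were Mrps21 (76.7 FPKM), Mrps15 (68.1 FPKM) and Mrps18b (50.6 FPKM). At the low end stood Mrps25 with 2.70 FPKM, Mrpl17 with 4.91, Mrpl41 with 6.25 and Mrpl35 with 6.39. The lowest small subunit genes after Mrps25 were Mrps11 with 13.4 FPKM and Mrps14 with 16.9.

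Some of these levels carry a limit from counting. RefSeq lists pseudogenes for Mrpl23, Mrpl27, Mrpl48 and Mrps36, which can share reads with their parent genes, so the values of these 4 are uncertain. The exons of 33 of the 78 genes overlap exons of another gene, for 21 of them a gene that is also in the tables, and nothing states whether the counting used the strand. Mrps25 shares 4590 of its 6576 exon bases with Nr2c2 and Mrpl19 shares 1962 of 5450 with Gcfc2, both on the other strand. Mrpl53 shares 695 of its 790 exon bases with the protein-coding gene Gm42688 on the same strand, so its value is uncertain too.

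Within groups these genes varied slightly less than the typical tested gene. The standard deviation within groups had a median of 0.152 (log2 of FPKM + 1) over the 78 genes, against 0.184 over all tested genes. It was 0.156 for the large and 0.148 for the small subunit. The 78 genes also had higher levels (median 32.9 against 12.5 FPKM), and the spread was not compared at equal level. The steadiest was Mrpl45, which anchors the large subunit at the inner membrane, with 0.063. The most variable were Mrpl42 with 0.283, Mrps18c with 0.275 and Mrpl47 with 0.255.

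The sums over each subunit overlapped between all groups. The large subunit genes summed to 1787 ± 46.1 FPKM in exercise with anti-PDL1, 1679 ± 119 in anti-PDL1, 1741 ± 97.9 in exercise and 1787 ± 112 in control tumours (SD, n = 4 each). The small subunit genes summed to 931 ± 20.6 FPKM in exercise with anti-PDL1, 858 ± 60 in anti-PDL1, 908.2 ± 65.1 in exercise and 949.5 ± 73.6 in control tumours. The means of anti-PDL1 were the lowest of the 4, and exercise with anti-PDL1 had the smallest spread.

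**Figure D1:**
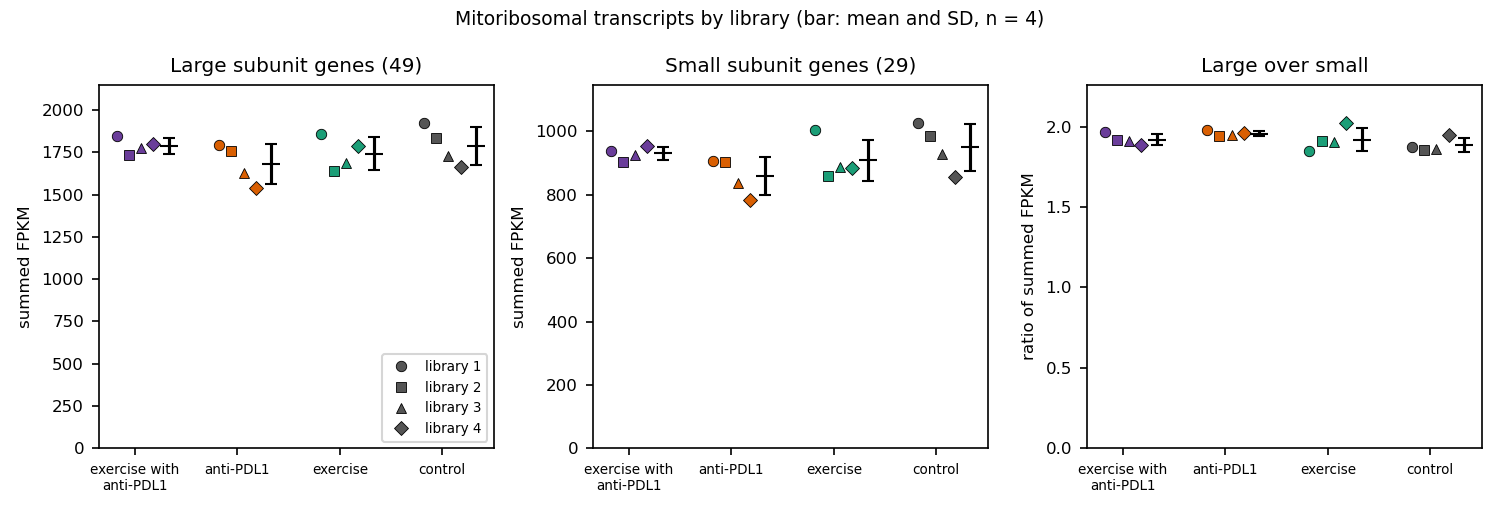
Summed FPKM of the 49 large subunit genes and the 29 small subunit genes, and their ratio, for each of 16 libraries, with the symbol marking the library number and the bar the mean and SD of the group (n = 4). The groups overlap in both sums, and the ratio stays between 1.85 and 2.02 in all 16 libraries.

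Both subunits moved together from library to library. The ratio of the large sum to the small sum was 1.919 ± 0.034 in exercise with anti-PDL1, 1.957 ± 0.0155 in anti-PDL1, 1.919 ± 0.0721 in exercise and 1.884 ± 0.0423 in control tumours. It ranged between 1.8475 in exercise library 1 and 2.0195 in exercise library 4. With the genes placed by structure the ratio was 2.197 ± 0.0449 in exercise with anti-PDL1, 2.256 ± 0.0127 in anti-PDL1, 2.196 ± 0.0892 in exercise and 2.147 ± 0.0618 in control tumours. Under either placement the ratio of sums had its highest mean in anti-PDL1 and its lowest in control tumours. By symbol the anti-PDL1 libraries (1.9414 to 1.9764) overlapped with control library 4 (1.9467), and by structure they (2.2415 to 2.2667) lay above the control libraries (2.105 to 2.2376). Sums give most weight to the highest genes. Mrpl30, the highest member and a large subunit gene, was higher in each anti-PDL1 library than in each control library. How far the ratios of sums rest on Mrpl30 was not tested. The order depended on the measure, since the ratio of the median large to the median small subunit gene was 1.254 ± 0.0786 in exercise with anti-PDL1, 1.149 ± 0.0905 in anti-PDL1, 1.262 ± 0.0646 in exercise and 1.237 ± 0.065 in control tumours, with anti-PDL1 lowest.

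A few libraries held the extremes of many members. In anti-PDL1 library 4, 37 of the 78 genes had their lowest value of all 16 libraries, and in control library 1, 25 had their highest. Relative to its own mean, the median large subunit gene stood at -0.22 and the median small subunit gene at -0.20 (log2) in anti-PDL1 library 4, where the median of all genes stood at -0.10. The corresponding values were 0.16 and 0.15 in control library 1, 0.11 and 0.10 in control library 2, and 0.11 and 0.15 in exercise library 1. Anti-PDL1 library 4 also had a summed level of 4071 FPKM over 5 red cell markers, against 68.8 to 792 FPKM in the other 15 libraries. Control library 2 had a summed level of 357 FPKM over 11 skeletal muscle markers, against 2.95 to 17.2 FPKM in the others. The same library had the highest sums of adipocyte markers (125 FPKM, against 7.71 to 33) and endothelial markers (140 FPKM, against 28.1 to 74.7). Its macrophage markers also had the highest sum (1928 FPKM, against 359 to 1499). The part of these cells in the results below was not tested.

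**Figure D2:**
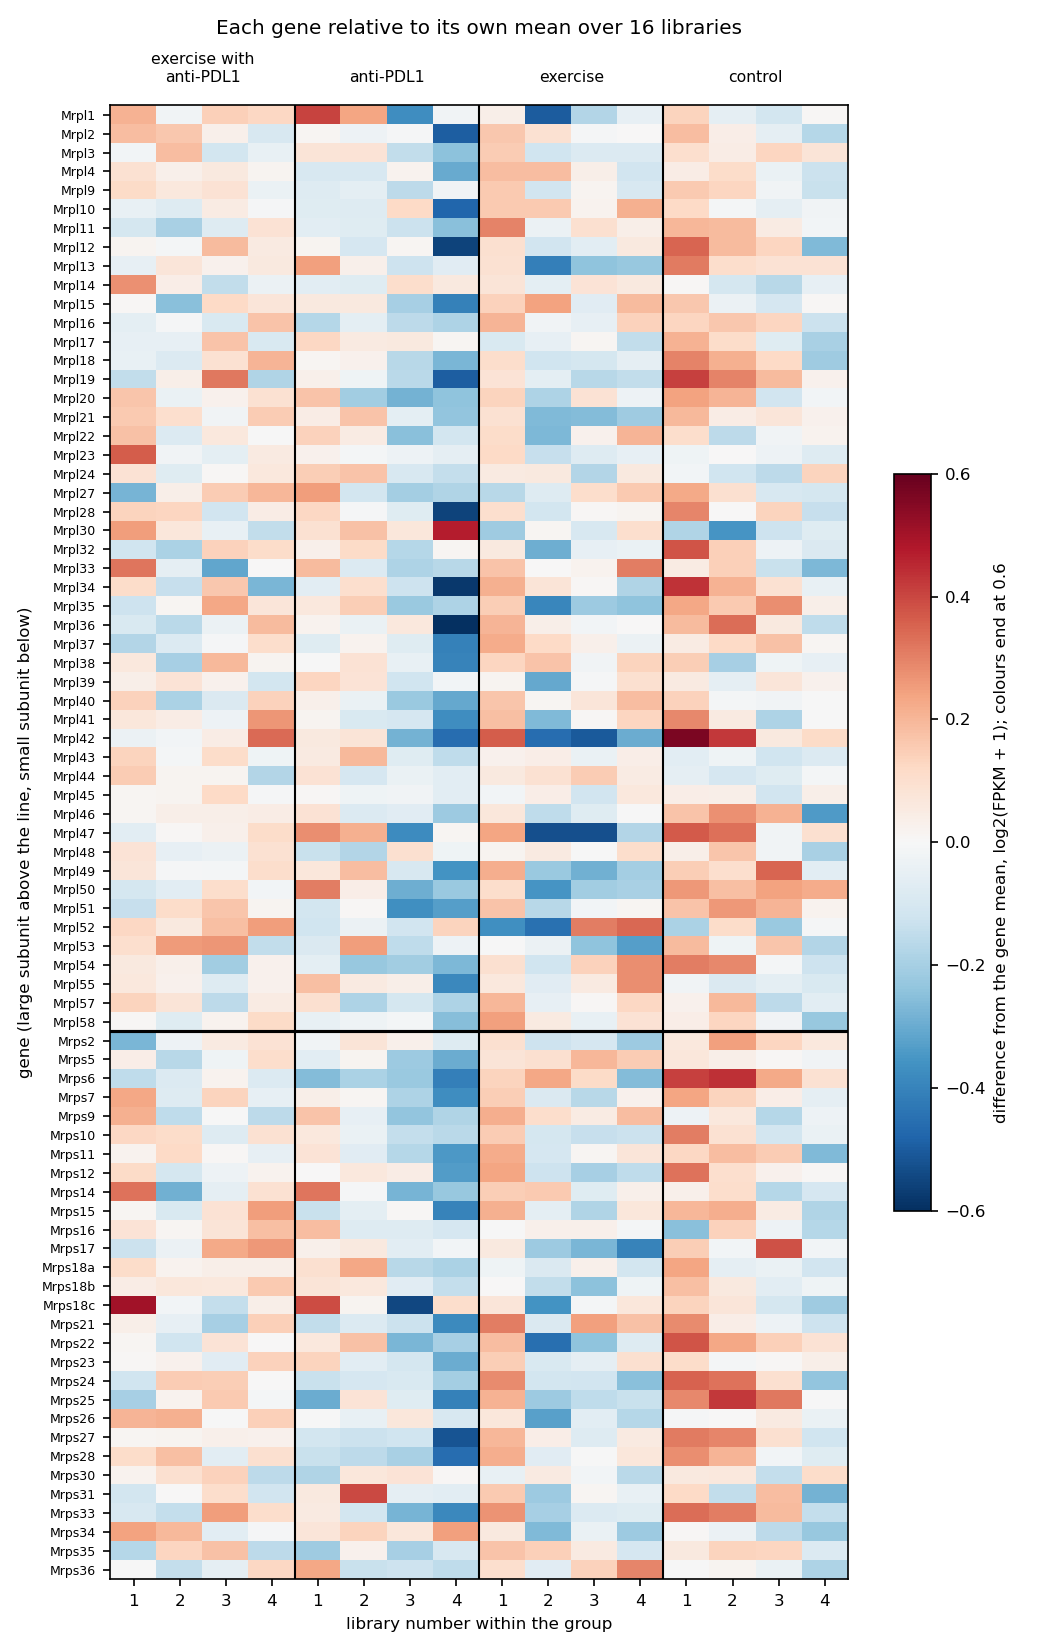
Each row is one of the 78 genes, large subunit above the line and small subunit below, and each column one of 16 libraries. The colour gives the difference of log2(FPKM + 1) from the gene's mean over all libraries, and the columns of control library 1 and anti-PDL1 library 4 stand out as mostly above and mostly below the gene means, in large and small subunit alike.

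The level of proliferation genes had its extremes in the same libraries. The 13 proliferation markers summed to 665 to 891 FPKM in exercise with anti-PDL1, 511 to 688 in anti-PDL1, 596 to 1133 in exercise and 710 to 1090 in control tumours. The 3 highest sums were those of exercise library 1 (1133 FPKM), control library 1 (1090) and control library 2 (1009), and the lowest that of anti-PDL1 library 4 (511). None of the 13 markers was at 0 throughout a group. The same libraries held the 3 highest sums and the lowest sum of mitochondrial ribosomal genes. Other libraries did not all line up. In exercise with anti-PDL1 library 1 the family summed to 2783 FPKM and the markers to 665. In control library 3 the family summed to 2660 FPKM and the markers to 976. The part of proliferation in the results below was not tested.

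In anti-PDL1 against control tumours 1 of the 78 genes passed the test. Mrps6, the homologue of bacterial S6 in the small subunit, fell by 0.56 on the log2 scale (standard error 0.11, limma, adjusted p = 0.0369). No large subunit gene passed. Over all tested genes 30 passed (0.253%), 19 higher and 11 lower, so that 0.0927% were called lower. Most of the family leaned the same way without passing. The log2 fold change was below 0 for 63 of the 78 genes (80.8%), against 57.7% of all genes, with 39 of 49 in the large and 24 of 29 in the small subunit. The median log2 fold change was -0.13 in either subunit and -0.04 over all genes.

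Mrps6 (chr16:92058336-92112227, plus strand, GRCm38.p6) measured 32.69, 34.31, 36.93 and 34.33 FPKM in exercise with anti-PDL1, 30.26, 31.79, 31.08 and 27.18 in anti-PDL1, 39.99, 42.98, 39.48 and 30.22 in exercise, and 48.66, 49.7, 42.79 and 38.85 in control tumours. Each anti-PDL1 library and each exercise with anti-PDL1 library lay below each control library, while the exercise libraries overlapped with control. The call depended on the fit, since the gene passed in 14 of 23 alternative fits, with adjusted p between 0.0158 and 0.536 in limma. It did not pass without control 1 (adjusted p = 0.112), control 2 (0.163), control 3 (0.0649), exercise 3 (0.0531), anti-PDL1 1 (0.0634), anti-PDL1 2 (0.0693) or anti-PDL1 4 (0.129), without controls 1 and 2 together (0.536), or with no filter on low values (0.0756). Its log2 fold change stayed between -0.63 and -0.43.

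Some exon sequence of Mrps6 is annotated to other genes too, and how many of its reads fall there was not tested. Of its 1533 exon bases, 159 are also exon of Slc5a3, a myo-inositol transporter gene on the same strand, and 305 are also exon of Gm49711. Slc5a3 averaged 3.29 FPKM in exercise with anti-PDL1, 4.09 in anti-PDL1, 2.84 in exercise and 3.25 in control tumours. In anti-PDL1 against control it had a log2 fold change of 0.24 (standard error 0.19, limma, adjusted p = 0.459), opposite in sign to Mrps6.

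At an unadjusted p under 0.05 in limma, 14 of the 78 genes (17.9%) were lower and 2 (2.56%) higher in anti-PDL1 tumours, against 15.7% and 7.77% of all genes. The shares of the 2 subunits were alike, with 10 of 49 large and 6 of 29 small subunit genes in either direction. Groups did not overlap for 6 of the 78 genes (7.69%), against 10.8% of all genes. Below the control libraries stood Mrpl11, Mrpl51, Mrps28 and Mrps6 (7.26% of all genes in that direction), and above them Mrpl30 and Mrps34 (3.57% of all genes). The share of members with a small p was thus near that of all genes for lower values and under it for higher ones, and the share with groups apart was under it.

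Next to Mrps6 the smallest p in the small subunit belonged to Mrps27 and Mrps28. Mrps27, a pentatricopeptide repeat protein, measured 18.87, 18.95, 19.12 and 19.08 FPKM in exercise with anti-PDL1, 17.29, 17.04, 17.13 and 12.78 in anti-PDL1, 21.65, 19.24, 17.66 and 19.46 in exercise, and 23.49, 23.12, 20.05 and 17.15 in control tumours. In anti-PDL1 against control it had a log2 fold change of -0.36 (standard error 0.11, limma, adjusted p = 0.0923), and control library 4 lay among the anti-PDL1 libraries. Mrps28 measured 21.4, 22.51, 18.85 and 21.17 FPKM in exercise with anti-PDL1, 17.89, 17.61, 17.09 and 14.11 in anti-PDL1, 23.07, 18.75, 19.7 and 20.75 in exercise, and 24.18, 22.87, 19.52 and 18.69 in control tumours. The log2 fold change was -0.33 (standard error 0.10, adjusted p = 0.0948), and the anti-PDL1 libraries lay below all the other 12 libraries. Mrps25, the member with the lowest level, had 1.76 to 2.87 FPKM in anti-PDL1 and 2.65 to 3.90 in control tumours (log2 fold change -0.43, adjusted p = 0.107).

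In the large subunit the smallest p belonged to Mrpl51, Mrpl30 and Mrpl19. Mrpl51, which has no bacterial counterpart, measured 19.49, 23.38, 24.29 and 21.8 FPKM in exercise with anti-PDL1, 19.93, 21.65, 16.48 and 16.91 in anti-PDL1, 24.39, 19.08, 21.3 and 21.71 in exercise, and 24.36, 26.01, 24.96 and 21.88 in control tumours. The difference was -0.36 on the log2 scale (standard error 0.10, limma, adjusted p = 0.0819), with a gap of 21.65 to 21.88 FPKM between the nearest libraries. Mrpl30 measured 112.8, 99.1, 91.64 and 85.24 FPKM in exercise with anti-PDL1, 100.71, 106.88, 99.21 and 131.43 in anti-PDL1, 81.33, 95.28, 88.37 and 101.43 in exercise, and 83.37, 73.72, 86.67 and 89.91 in control tumours. It went against most of the family, with a log2 fold change of 0.38 (standard error 0.11, adjusted p = 0.0847). Anti-PDL1 library 4, the lowest library for 37 members, had the highest Mrpl30 of all 16. Mrpl19, the homologue of bacterial L19, had 4.94 to 7.56 FPKM in anti-PDL1 and 7.54 to 10.12 in control tumours (log2 fold change -0.39, adjusted p = 0.114).

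Mrps34, the other gene above control in every anti-PDL1 library, measured 31.02, 30.03, 24.94 and 25.96 FPKM in exercise with anti-PDL1, 27.56, 28.71, 27.46 and 31.11 in anti-PDL1, 27.22, 21.56, 25.41 and 22.28 in exercise, and 26.23, 25.45, 23.3 and 22.14 in control tumours. It had a log2 fold change of 0.23 (standard error 0.09, limma, adjusted p = 0.158). Variants of human MRPS34 cause a mitochondrial disease with impaired translation. Of the 2064 exon bases of Mrps34, 763 are shared with Nme3 on the same strand and 1309 with Mapk8ip3 on the other, so its value is uncertain.

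**Figure D3:**
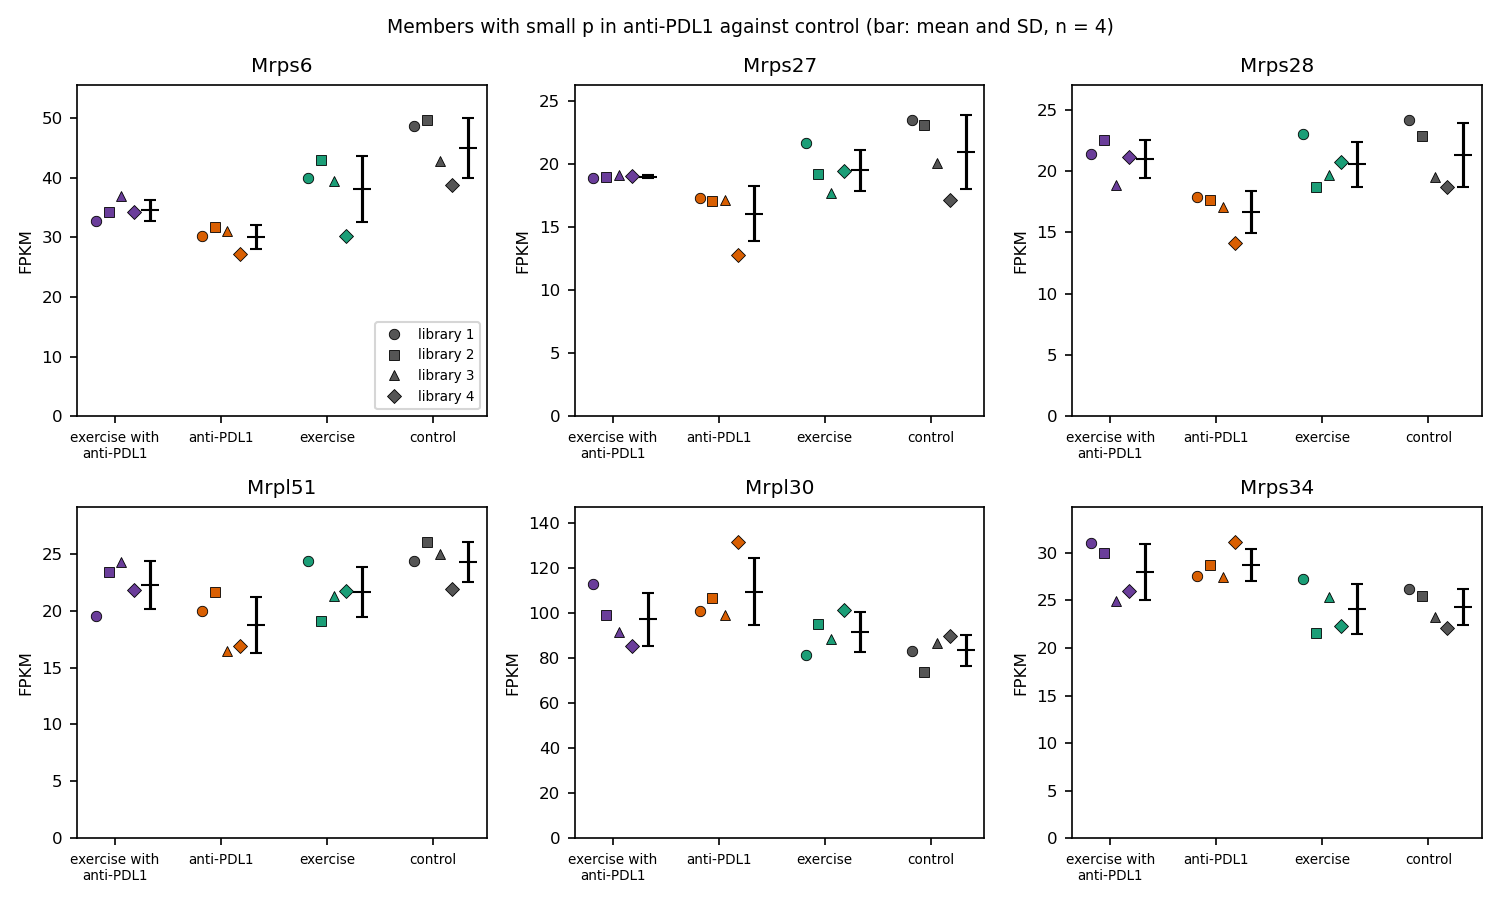
FPKM of 6 genes in each of 16 libraries, with the symbol marking the library number and the bar the mean and SD of the group (n = 4). Mrps6 (27.18 to 31.79 FPKM in anti-PDL1, 38.85 to 49.7 in control) shows a gap between the 2 groups, and Mrpl30 and Mrps34 run the other way from the other 4.

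The lean of the family in anti-PDL1 tumours was smaller without certain libraries. Without anti-PDL1 library 4 the median log2 fold change was -0.06 for the large and -0.10 for the small subunit, against -0.02 over all genes. Without controls 1 and 2 together it was -0.04 and -0.07, against -0.05 over all genes, so that the large subunit no longer stood below the typical gene. In that fit 4 genes passed in all and none was a member. Without control library 4, in contrast, 768 genes passed (6.47%), among them 7 members (8.97%), namely Mrps6, Mrps27, Mrpl51, Mrps28, Mrps25 and Mrpl54 lower and Mrpl30 higher. With library weights 835 genes passed (7.04%), 4 of them members, Mrps6, Mrps27 and Mrps28 lower and Mrpl30 higher. All 13 proliferation markers and all 11 macrophage markers also had log2 fold changes below 0 in this comparison, with medians of -0.60 and -1.22. Below 0 were also 4 of 4 tested skeletal muscle markers (median -1.35), 7 of 8 endothelial markers (-0.58), 5 of 8 fibroblast markers (-0.45) and the 1 tested adipocyte marker (-0.65). Above 0 were 4 of 4 tested T cell and NK markers (median 1.54), of which Nkg7, a granule protein gene of cytotoxic lymphocytes, passed the test (log2 fold change 1.26, limma, adjusted p = 0.0436). The same sign was seen in 5 of 5 red cell markers (0.29), 3 of 3 tested keratinocyte markers (0.185) and 4 of 6 neutrophil markers (0.06). The 11 macrophage markers summed to 359 to 760 FPKM in anti-PDL1 and 473 to 1928 in control tumours, and the 12 T cell and NK markers of the tables to 17.8 to 47.9 FPKM in anti-PDL1 and 5.11 to 10 FPKM in control tumours. The part of these cells in the result was not tested.

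In exercise against control tumours no gene passed in limma, while 2131 genes (18%) had an unadjusted p under 0.05. Among the 78, 12 did (15.4%), and all 12 were lower in exercise, against 9.93% of all genes in that direction, whereas 8.03% of all genes were higher. The 12 were 7 large subunit genes (Mrpl13, Mrpl19, Mrpl21, Mrpl35, Mrpl42, Mrpl47 and Mrpl50) and 5 small subunit genes (Mrps2, Mrps6, Mrps17, Mrps22 and Mrps25). The family as a whole did not lean far. The log2 fold change was below 0 for 51 of 78 genes (65.4%), against 53.8% of all genes, and its median was -0.02 in the large and -0.06 in the small subunit, against -0.02 over all genes.

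Mrpl13, the homologue of bacterial L13, measured 61.34, 43.03, 48.48 and 49.09 FPKM in exercise and 71.81, 62.07, 61.17 and 61.17 in control tumours. This was a log2 fold change of -0.35 (standard error 0.11, limma, adjusted p = 0.181). Mrpl50, a protein of the large subunit without bacterial counterpart, measured 18.44, 13.16, 14.64 and 14.83 FPKM in exercise and 20.69, 19.5, 20.41 and 20.1 in control tumours, a log2 fold change of -0.39 (standard error 0.12, adjusted p = 0.181). Among the 78 it was the only one whose exercise libraries all lay below control (3.51% of all genes), while Mrpl44 and Mrps5 lay above it (4.21% of all genes). Together these 3 made up 3.85% of the family, against 7.72% of all genes with groups apart.

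The pattern of Mrpl13 and Mrpl50, in which exercise library 1 stood near control and the other exercise libraries below, recurred. Mrps17, the homologue of bacterial S17, measured 46.85, 38.54, 36.99 and 33.76 FPKM in exercise and 49.83, 44.48, 58.92 and 44.36 in control tumours. Mrps22, whose human counterpart is mutated in a mitochondrial disease of infancy, measured 22.04, 13.84, 16.17 and 18.23 FPKM in exercise and 25.32, 22.83, 21.36 and 20.53 in control tumours. Mrpl42 measured 78.01, 43.72, 42.35 and 49.05 FPKM in exercise and 89.75, 81.4, 62.99 and 65.46 in control tumours. Their log2 fold changes were -0.33, -0.36 and -0.51, with standard errors of 0.12, 0.13 and 0.18 and adjusted p of 0.196, 0.199 and 0.196 in limma. In all 3, exercise library 1 overlapped with control and the other 3 exercise libraries lay below it.

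Mrpl47, which corresponds to bacterial L29 at the tunnel exit, measured 22.84, 13.04, 13.03 and 16.91 FPKM in exercise and 25.13, 24.45, 18.95 and 20.62 in control tumours. Mrpl35, the homologue of bacterial L35, measured 7.12, 4.59, 5.3 and 5.19 FPKM in exercise and 7.61, 7.17, 7.89 and 6.5 in control tumours. Mrpl21, the homologue of bacterial L21, measured 37.18, 28.8, 28.87 and 29.86 FPKM in exercise and 39.95, 35.9, 36.63 and 35.48 in control tumours. Here too exercise library 1 lay among the controls and the others below. Mrpl47 shares 616 exon bases with Ndufb5 and 452 with Actl6a on the other strand. The log2 fold changes were -0.44 for Mrpl47, -0.35 for Mrpl35 and -0.25 for Mrpl21 (limma, adjusted p = 0.205, 0.196 and 0.22).

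**Figure D4:**
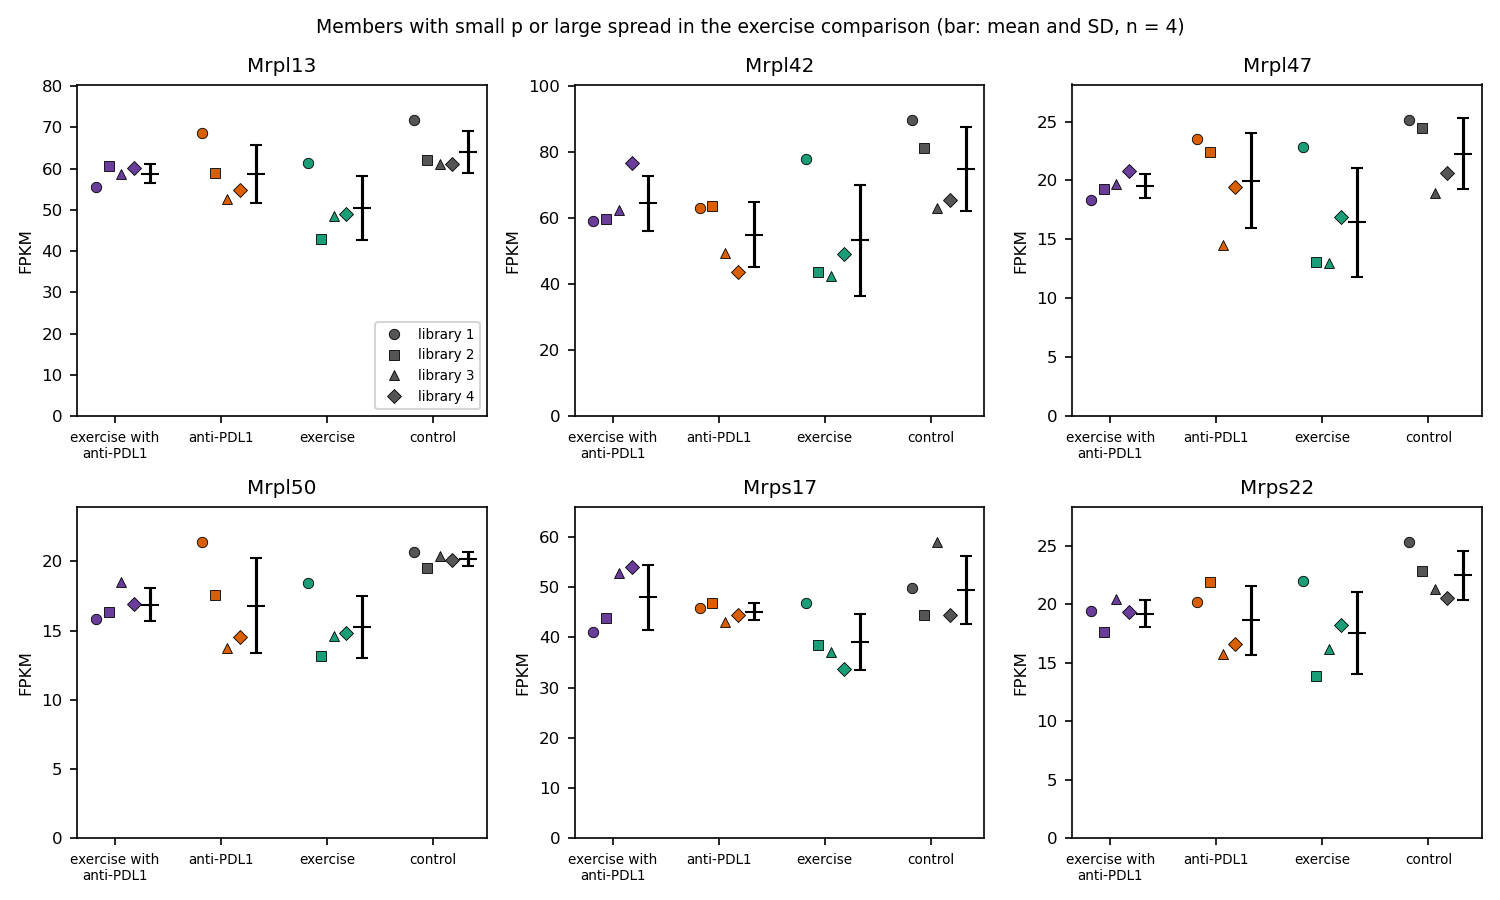
FPKM of 6 genes in each of 16 libraries, with the symbol marking the library number and the bar the mean and SD of the group (n = 4). In each of the 6, exercise library 1 is the highest of its group, and the other 3 exercise libraries lie below the control libraries.

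With exercise library 1 left out, the number of calls in limma was 611 genes (5.15%), 434 of them lower (3.66%), and among them were 7 of the 78 members (8.97%), all lower in exercise. These were Mrpl13, Mrpl35, Mrpl42, Mrpl47, Mrpl50, Mrps17 and Mrps22. With library weights 2274 genes passed (19.2%), 1356 of them lower (11.4%), and 15 members passed, all lower. Without controls 1 and 2 together the medians were 0.06 for the large and 0.02 for the small subunit, so the sign of both medians rested on these libraries. All 13 proliferation markers had log2 fold changes below 0 in exercise against control (median -0.24). Their sum was 1133 FPKM in exercise library 1 and 596 to 679 FPKM in the other exercise libraries. Below 0 were also all 11 macrophage markers (-0.30), all 4 tested skeletal muscle markers (-0.78) and 6 of 8 endothelial markers (-0.24). So were 5 of 6 neutrophil markers (-0.205) and the 1 tested adipocyte marker (-0.95). Above 0 were all 4 tested T cell and NK markers (0.52), all 3 tested keratinocyte markers (0.18) and 4 of 5 red cell markers (0.08). The fibroblast markers were split 4 to 4. The part of these cells was not tested.

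Both members above control in exercise differed from it little. Mrpl44, a relative of ribonuclease III, measured 11.4, 11.67, 12.23 and 11.31 FPKM in exercise and 10.48, 10.1, 10.32 and 10.82 in control tumours, a log2 fold change of 0.15 (limma, adjusted p = 0.325). Mrps5, the homologue of bacterial S5, measured 46.1, 46.63, 50.19 and 48.55 FPKM in exercise and 45.68, 44.63, 43.77 and 42.93 in control tumours, a log2 fold change of 0.11 (adjusted p = 0.466). Both were chosen after their values were seen, as members whose groups did not overlap.

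In exercise with anti-PDL1 against control tumours no gene passed in limma, 973 genes (8.2%) had an unadjusted p under 0.05, and of the 78 only Mrps6 did (1.28%). It was lower, as were 5.19% of all genes at that p, while 3.01% were higher. Here Mrps6 had a log2 fold change of -0.37 (standard error 0.11, adjusted p = 0.572). Log2 fold changes were below 0 for 45 of 78 genes (57.7%), against 58.1% of all genes. The medians were -0.02 in both subunits and -0.03 over all genes. The sign of the small subunit median rested on controls 1 and 2, since without them together it was above 0. Groups did not overlap for Mrpl13, Mrpl50, Mrps22 and Mrps6, all below control (5.13%, against 2.37% of all genes in that direction, 1.46% in the other and 3.83% in both). Mrpl13 measured 55.65, 60.68, 58.72 and 60.08 FPKM in exercise with anti-PDL1, just under the lowest control library at 61.17. Mrps22 measured 19.41, 17.66, 20.44 and 19.33 FPKM, against 20.53 in the lowest control library.

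In exercise with anti-PDL1 against anti-PDL1 the family leaned upwards without any call. No gene passed in limma, and 468 genes (3.94%) had an unadjusted p under 0.05. Of the 78, 3 did (3.85%), all higher, namely Mrps28, Mrpl51 and Mrps27, against 2.25% of all genes in that direction and 1.69% in the other. Their log2 fold changes were 0.32, 0.24 and 0.24 with standard errors of 0.10, 0.10 and 0.11, and an adjusted p of 0.968 each. Log2 fold changes were above 0 for 70 of 78 genes (89.7%), against 55.2% of all genes, and the medians were 0.10 in the large and 0.11 in the small subunit, against 0.02 over all genes. Without anti-PDL1 library 4 the medians were 0.04 in the large and 0.08 in the small subunit, against -0.0065 over all genes. This comparison shares its anti-PDL1 libraries, with the opposite sign, with anti-PDL1 against control, so that a low anti-PDL1 library enters both.

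Groups did not overlap for Mrps27, Mrps28 and Mrps6 in this comparison, all small subunit genes that were higher in exercise with anti-PDL1 (3.85%, against 1.4% of all genes in that direction, 0.843% in the other and 2.24% in both). Mrps27 lay between 18.87 and 19.12 FPKM in exercise with anti-PDL1 and between 12.78 and 17.29 in anti-PDL1 tumours. For Mrps6 the ranges were 32.69 to 36.93 FPKM in exercise with anti-PDL1 and 27.18 to 31.79 in anti-PDL1 tumours, a log2 fold change of 0.20 (standard error 0.11, limma, adjusted p = 0.968). All 13 proliferation markers were likewise above 0 (median 0.30). So were 9 of 11 macrophage markers (0.375), 3 of 4 tested skeletal muscle markers (0.14) and 2 of 3 tested keratinocyte markers (0.08). All 5 red cell markers (median -1.18) and all 4 tested T cell and NK markers (-0.31) were below 0. Below 0 were also 4 of 6 neutrophil (-0.41), 5 of 8 endothelial (-0.18) and 5 of 8 fibroblast markers (-0.13). The 1 tested adipocyte marker stood at -0.39. The part of these cells was not tested.

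In exercise with anti-PDL1 against exercise no gene passed in limma, and 1618 genes (13.6%) had an unadjusted p under 0.05. Of the 78, 7 did (8.97%), all higher, against 6.7% of all genes in that direction and 6.93% in the other. They were Mrpl13, Mrpl21 and Mrpl53 in the large subunit and Mrps17, Mrps18b, Mrps26 and Mrps34 in the small subunit. The smallest p was that of Mrps26, a small subunit protein without bacterial counterpart, which measured 46.8, 47.22, 40.51 and 44.95 FPKM in exercise with anti-PDL1 and 42.56, 32.19, 38.82 and 35.93 in exercise tumours. The log2 fold change was 0.26 (standard error 0.08, adjusted p = 0.219). Mrps18b, one of 3 mammalian relatives of bacterial S18, was the 1 member whose groups did not overlap (1.28%, against 3.21% of all genes higher, 3.73% lower and 6.94% in both), with 52.13, 52.89, 52.74 and 56.44 FPKM in exercise with anti-PDL1 and 50.56, 45.53, 42.39 and 49.5 in exercise tumours. This gave a log2 fold change of 0.19 (standard error 0.08, adjusted p = 0.325). The medians were 0.04 in the large and 0.05 in the small subunit, against -0.02 over all genes.

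**Figure D5:**
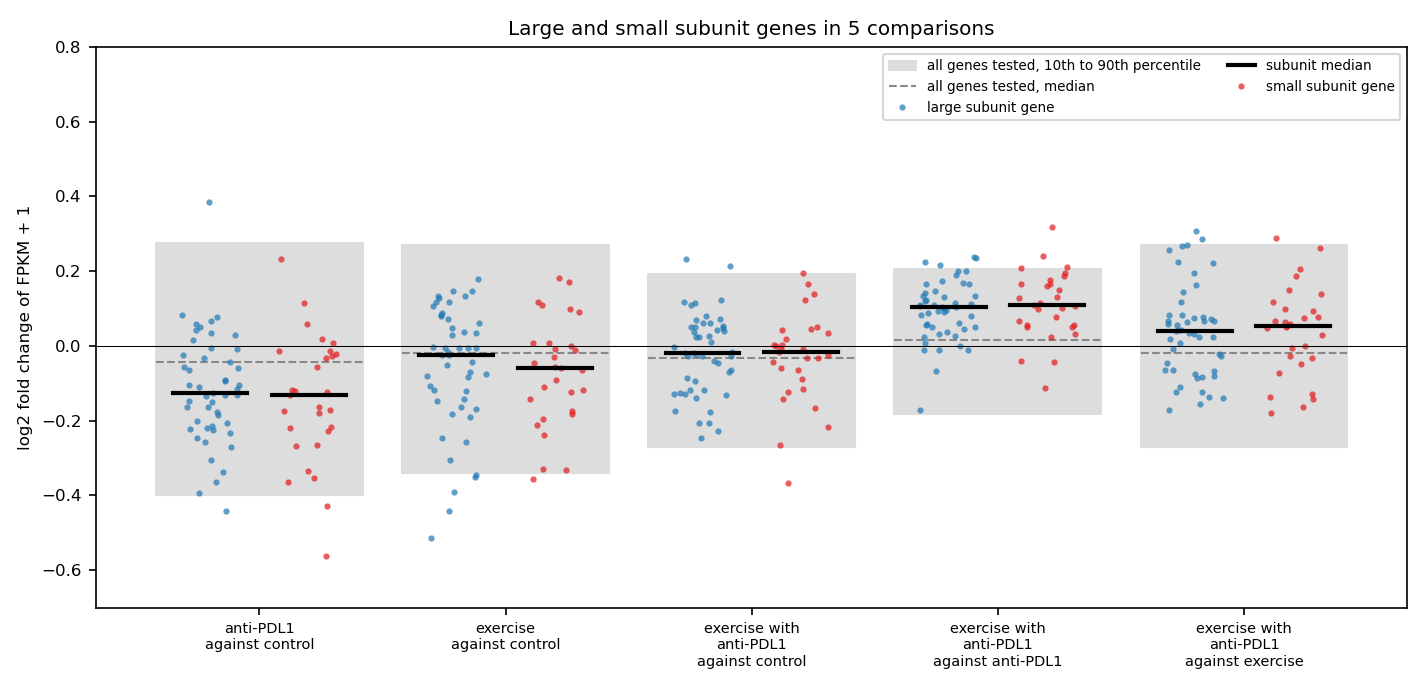
Log2 fold changes of FPKM + 1 for the 49 large and 29 small subunit genes in the 5 pairwise comparisons, one point a gene, with the subunit median as a thick line, the median of all 11868 tested genes as a dashed line and their 10th to 90th percentile as a grey band. The subunit medians lie at -0.13 in anti-PDL1 against control and at 0.10 and 0.11 in exercise with anti-PDL1 against anti-PDL1, and most points of both subunits fall inside the band in each comparison.

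The interaction asks whether the difference made by exercise with anti-PDL1 exceeds the sum of those made by exercise and by anti-PDL1. No gene passed in limma, and 1554 genes (13.1%) had an unadjusted p under 0.05. Among the 78, 15 did (19.2%), all with a positive interaction, against 7.99% of all genes in that direction and 5.11% in the other. They made up 7 of 49 large subunit genes (14.3%) and 8 of 29 small subunit genes (27.6%). The interaction contains the single treatments with a negative sign and the control libraries with a positive one, so it uses the same libraries as the comparisons above. It was above 0 for 62 of the 78 genes, against 54.9% of all genes, and the medians were 0.15 in the large and 0.17 in the small subunit, against 0.04 over all genes. No marker gene passed for the interaction in limma. Its value was above 0 for all 13 proliferation markers (median 0.54), all 11 macrophage markers (0.81) and all 4 tested skeletal muscle markers (0.95). The 1 tested adipocyte marker also stood above 0 (0.56). Below 0 were all 4 tested T cell and NK markers (-0.83), all 5 red cell markers (-1.26) and all 3 tested keratinocyte markers (-0.25). Fibroblast markers were below 0 for 5 of 8 (-0.34). Endothelial and neutrophil markers were split 4 to 4 and 3 to 3. The part of these markers in the result was not tested.

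Mrpl42 had the largest interaction of the family. It measured 59.04, 59.77, 62.33 and 76.85 FPKM in exercise with anti-PDL1, 63.02, 63.77, 49.54 and 43.72 in anti-PDL1, 78.01, 43.72, 42.35 and 49.05 in exercise, and 89.75, 81.4, 62.99 and 65.46 in control tumours. The interaction was 0.75 on the log2 scale (standard error 0.26, limma, adjusted p = 0.364). Without exercise library 1 it passed with an adjusted p of 0.0368, among 223 genes (1.88%), and its adjusted p lay between 0.0368 and 0.697 over the 23 alternatives. Mrps6 and Mrpl51 followed by p with interactions of 0.43 and 0.40, standard errors of 0.15 and 0.14, and an adjusted p of 0.364 each.

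The 3 genes whose symbol and place differ had near equal means in the 4 groups, apart from a higher mean of Mrps36 in exercise. Mrps30 averaged 30.3 ± 2.75 FPKM in exercise with anti-PDL1, 29.6 ± 2.51 in anti-PDL1, 28.8 ± 1.81 in exercise and 30.2 ± 2.35 in control tumours (SD, n = 4 each). Mrps18a averaged 36.3 ± 1.05 FPKM in exercise with anti-PDL1, 35.1 ± 5.2 in anti-PDL1, 33.8 ± 1.55 in exercise and 35.3 ± 4.1 in control tumours. Mrps36 averaged 20.6 ± 1.67 FPKM in exercise with anti-PDL1, 20.3 ± 2.9 in anti-PDL1, 22.8 ± 2.44 in exercise and 20.1 ± 1.3 in control tumours. Their log2 fold changes lay between -0.03 and 0.01 in anti-PDL1 against control. Placing them by structure moved the medians of that comparison to -0.11 in the large and -0.17 in the small subunit.

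Genes at the exit of the peptide tunnel and at the stalk were looked at for their place in the ribosome, with values already known. At the tunnel exit Mrpl22, Mrpl23, Mrpl24, Mrpl45 and Mrpl47 had log2 fold changes of -0.03, 0.02, 0.06, -0.02 and -0.16 in anti-PDL1 against control. The standard error was 0.17 for Mrpl47 and between 0.07 and 0.11 for the other 4. Mrpl45 averaged 49.1 ± 2.02 FPKM in exercise with anti-PDL1, 47.1 ± 0.929 in anti-PDL1, 47.7 ± 2.62 in exercise and 47.9 ± 2.5 in control tumours. At the stalk, where elongation factors bind, Mrpl10, Mrpl11 and Mrpl12 had log2 fold changes of -0.14, -0.23 and -0.26, with standard errors of 0.10, 0.09 and 0.13 (limma, adjusted p = 0.43, 0.155 and 0.253). Mrpl12 averaged 67.7 ± 4.33 FPKM in exercise with anti-PDL1, 58.7 ± 10.3 in anti-PDL1, 64.5 ± 4.47 in exercise and 70.3 ± 12.1 in control tumours. Mrpl58, which frees stalled ribosomes by cutting the peptide from its transfer RNA, averaged 56.9 ± 3.12 FPKM in exercise with anti-PDL1, 53.0 ± 4.14 in anti-PDL1, 59.8 ± 5.16 in exercise and 55.6 ± 5.72 in control tumours.

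Ribosomal proteins and helpers without an Mrp symbol gave no call. Of the 4 small subunit proteins Dap3, Ptcd3, Chchd1 and Aurkaip1, none passed in any comparison in limma. Ptcd3, a pentatricopeptide repeat protein of the small subunit, measured 19.61, 24.53, 30.36 and 21.81 FPKM in exercise with anti-PDL1, 23.97, 27.12, 18.59 and 16.05 in anti-PDL1, 26.33, 16.02, 15.35 and 17.71 in exercise, and 31.95, 26.39, 30.19 and 24.6 in control tumours. It had the pattern of Mrpl42, with exercise library 1 near control and the other 3 exercise libraries below all controls. Its log2 fold change was -0.58 in exercise against control and -0.41 in anti-PDL1 against control, with a standard error of 0.18 in both (adjusted p = 0.181 and 0.193). Dap3, a GTP-binding protein of the small subunit head, had a log2 fold change of -0.17 in anti-PDL1 against control, and Gadd45gip1, a large subunit protein, of -0.18 (adjusted p = 0.399 and 0.395).

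The machinery around the ribosome was described by list in anti-PDL1 against control, without a test of any list. None of the lists held a gene that passed. Of 16 tested translation factors, 10 were below 0 (median -0.05). The smallest p belonged to Gfm1, the elongation factor that moves the ribosome along the messenger, and Tsfm, the exchange factor of the transfer RNA carrier, with log2 fold changes of -0.29 and -0.28 (limma, adjusted p = 0.14 and 0.165). Of 26 tested assembly and ribosomal RNA modification genes, 14 were below 0 (median -0.04), led by Rpusd3, of the pseudouridine synthase family, and Nsun4, a methyltransferase of mitochondrial ribosomal RNA, with -0.32 and -0.25 (adjusted p = 0.153 and 0.198). Of 17 mitochondrial aminoacyl-tRNA synthetases, 13 were below 0 (median -0.13), led by Lars2, for leucine, and Sars2, for serine, with -0.36 and -0.39 (adjusted p = 0.114 and 0.155).

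Of 13 genes of mitochondrial transcription and RNA handling, 8 were below 0 (median -0.14). Lrpprc, which stabilises mitochondrial messengers, averaged 23.3 FPKM in exercise with anti-PDL1, 20.6 in anti-PDL1, 21.6 in exercise and 27.4 in control tumours, a log2 fold change of -0.42 in anti-PDL1 against control (limma, adjusted p = 0.163). Tfb2m, a mitochondrial transcription factor, had -0.26 (adjusted p = 0.192). Of the 9 tested nuclear regulators, 6 were below 0 (median -0.06), led by Pprc1, a coactivator of the PGC-1 family, and Gabpb2 with -0.28 and -0.18. Nrf1 and Gabpa, looked at because they bind the motifs searched above, had log2 fold changes of -0.06 each (adjusted p = 0.625 and 0.708). Of 28 symbols of genes encoded in mitochondrial DNA that were looked up, 0 were found among the entries. The ribosomal RNAs and the products of this ribosome were therefore not analysed.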

How the data were processed

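RNA was measured in 16 libraries of grafted MC38 tumours, total RNA extracted with Trizol per the labels. The authors deposited FPKM values with 2 decimals for 18480 entries per library, per the file headers. The submitters' processing notes name HISAT, Bowtie2 and the build GRCm38.p6, with neither version nor role. The sources used here give no library kit, strand setting or program for FPKM. Only 67.6% of 25178 low values came within 0.15 of a whole number of steps, a step being a gene's lowest value, so whole reads were not recovered, and no counting interval is given.

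Values were taken as log2(FPKM + 1), on which scale fold changes of low genes are understated. The 11868 genes that reached 1 FPKM in 4 or more libraries entered one limma model (limma 3.58.1, R 4.3.3, trend and robust settings) with the group as its only term, over all 16 libraries, which share one estimate of the spread. Benjamini-Hochberg adjustment was made over all 11868 genes of a contrast, with a threshold of 0.05. The model was tested on simulated data. No 2 libraries held identical values, and their correlations lay between 0.957 and 0.989 within groups and between 0.933 and 0.990 between groups.

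The members, the other gene lists, the tests and the alternatives were chosen with earlier results of these data known. Members were named if they passed the threshold, had one of the 3 smallest p of their subunit in a contrast, stood among the 3 highest or lowest levels of their subunit or the 3 largest spreads, or were Mrps30, Mrps18a or Mrps36. Others are named as chosen after their values were seen, or as members of a count. Of the other lists, genes that passed or else the 2 with the smallest p in anti-PDL1 against control were named. Coordinates and promoter windows are from RefSeq, exon overlaps from GENCODE M21, both on GRCm38. The alternatives were a pseudocount of 0.1, no filter, median centring, quantile normalization, a block for the replicate number, weights per library, leaving out each library, and leaving out controls 1 and 2 together.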

Additional observations from a re-analysis of the deposited data

Results flagged for a closer look

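Of 144 groups of 4 values looked at, for 33 named members, both subunit sums and their ratio, 7 held a library set apart from the other 3, where chance flags about 1 in 20 groups. The gap to the nearest library took up more than 0.829 of the range of the group in each. In exercise with anti-PDL1, Mrpl17 reached 5.63 FPKM in library 3, against 4.54 to 4.70 in the others. Mrps18a reached 37.86 FPKM in library 1 of that group, against 35.56 to 35.9. In anti-PDL1, Mrps27 was low with 12.78 FPKM in library 4, against 17.04 to 17.29, and Mrps36 was high with 24.67 FPKM in library 1, against 18.66 to 19.06. In exercise, Mrpl21 was high with 37.18 FPKM in library 1, against 28.8 to 29.86. In control, Mrpl13 was high with 71.81 FPKM in library 1, against 61.17 to 62.07, and Mrps11 was low with 10.94 FPKM in library 4, against 14.63 to 15.33. The library set apart for Mrps27 had the lowest sum of the family in the series, and that for Mrpl13 the highest. Those for Mrpl21, Mrps18a and Mrps36 had the highest sum of their group, and that for Mrps11 the lowest. The library set apart for Mrpl17 had a sum of 2700 FPKM, neither the highest nor the lowest of its group.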

How the results depend on the processing

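The number of calls depended on the fit more than the fold changes did. In anti-PDL1 against control, 30 genes and 1 member passed. The counts were 8 genes and 0 members without the filter, 77 genes with median centring, 117 with quantile normalization, 15 with the replicate block, 835 genes and 4 members with library weights, and 4 genes and 0 members without controls 1 and 2. With each library left out they ran between 6 and 768 genes and between 0 and 7 members. With library weights the split was 293 higher and 542 lower, against 19 and 11.

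In exercise against control, where 0 genes passed, library weights gave 2274 genes and 15 members, and leaving out each library gave 0 to 611 genes and 0 to 7 members. In exercise with anti-PDL1 against exercise, also at 0, median centring and quantile normalization gave 2 genes each, library weights 222, leaving out controls 1 and 2 gave 5, and leaving out each library 0 to 184, with no member in any. For the interaction the left-out fits gave 0 to 223 genes and 0 to 1 member. Where no construction shows it, the cause was not tested.

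Without controls 1 and 2 the median of the small subunit was 0.024 in exercise against control and 0.066 in exercise with anti-PDL1 against control. Its interaction median lay between 0.134 and 0.253 with each library left out. The other medians moved by less than the standard deviation of the library medians, 0.103 in the large and 0.08 in the small subunit. That measure is of the size of the medians themselves. Within it, the large subunit median in exercise against control changed sign without controls 1 and 2, as given above.

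Same-numbered libraries did not deviate together: 6 of 24 correlations exceeded 0.1, and they ranged between -0.62 and 0.34. The replicate block, which keeps Mrps6 as the 1 member called in anti-PDL1 against control, changed no other call of a member. FPKM give no depth, so the limit set by counting is unknown.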

Other observations

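Genes with a bacterial homologue and genes specific to mitochondria differed little in level in the large subunit and more in the small. The split was made after the values were seen and was not tested. Placed by structure, the 30 large subunit genes with a bacterial homologue had a median of 34.8 FPKM and the 21 mitochondria-specific ones 35.1 FPKM. In the small subunit the 16 with a homologue had 31.7 FPKM and the 10 mitochondria-specific ones 22.5 FPKM. In anti-PDL1 against control the median log2 fold changes were -0.13 and -0.06 in the large subunit and -0.17 and -0.15 in the small. In exercise with anti-PDL1 against anti-PDL1 they were 0.10 and 0.10 in the large and 0.13 and 0.11 in the small. The 3 relatives of bacterial S18 took different levels, with Mrps18b at 52.0 ± 4.05, Mrps18a at 35.3 ± 4.1 and Mrps18c at 27.4 ± 3.13 FPKM in control tumours (SD, n = 4).

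Mrps18c varied most within groups after Mrpl42. It measured 39.77, 27.42, 25.08 and 28.48 FPKM in exercise with anti-PDL1, 36.74, 28.14, 18.7 and 29.99 in anti-PDL1, 29.31, 21.45, 27.55 and 29.18 in exercise, and 30.62, 29.25, 25.79 and 23.8 in control tumours. Its highest and lowest values of all 16 libraries stood in the antibody groups, and its log2 fold change in anti-PDL1 against control was 0.02 with a standard error of 0.18.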
